A study of Drosophila melanogaster with 4 samples.

Results

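RU486 feeding in MEF2 RNAi flies was examined by comparing the thorax library of Act88FGS>UAS-MEF2 RNAi females fed RU486 with the library of the same genotype given the ethanol vehicle. These 2 libraries were chosen by their labels from the 4 of the series, and all 13012 genes of the table entered the comparison. The other 2 libraries are from Act88FGS>w1118 females, which carry the driver without the RNAi transgene, with RU486 and with ethanol. All flies were females aged 10 days on a high calorie diet, and 8 thoraces were pooled for each library. Each condition had 1 library, so that no difference could be checked against replicates and neither a p-value nor an error is given. The labels do not say which MEF2 RNAi line was used.

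GeneSwitch drivers encode a GAL4 fusion protein that becomes active when it binds RU486, so feeding the drug turns on the UAS transgene in tissues where the driver is made. Act88F is the actin gene of the indirect flight muscle, and MEF2 is the transcription factor that directs muscle gene expression from the embryo onward. The thorax also holds nerve, fat body, trachea, blood cells, cuticle and gut. The w1118 pair was fed the same drug without the RNAi transgene, and its difference is set beside each result.

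The deposited values are on a log2 scale and centred gene by gene, so that the 4 values of a gene sum to 0 and hold neither an expression level nor a read depth. Read as plain log2 values, a value of 1 is a doubling over the mean of that gene in the 4 libraries. The normalization is not given in the sources used here, so all folds below rest on that reading. The median of all genes was -0.18 in the MEF2 RNAi library with RU486 and 0.19 in the one without, against 0.17 and -0.18 in the w1118 pair in the same order. As deposited, 88.9% of the genes were therefore lower with RU486 in MEF2 RNAi thoraces, with a median difference of -0.38. In the w1118 pair the median difference was 0.36. Each library was therefore also set to its own median over all genes, which added 0.36 to every log2 difference in MEF2 RNAi thoraces, and differences on that scale are called relative. In 2098 genes (16.1%) every value lay within 0.1 of 0. Such flat genes had a median relative difference of 0.35 and a median deposited difference of -0.01, and they form the second peak in the plot of all differences.

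**Figure D1:**
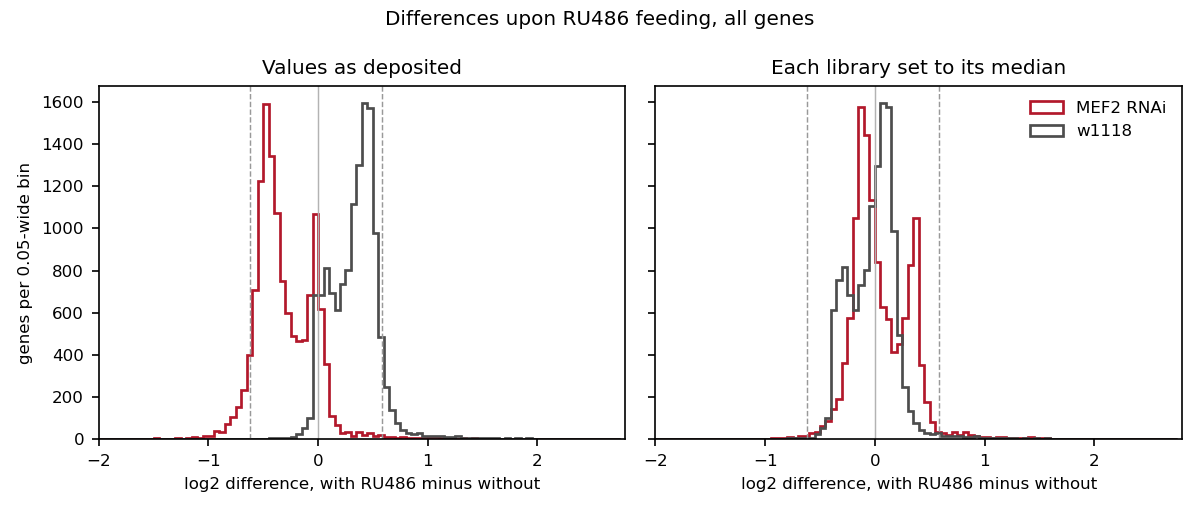
Number of genes (vertical axis) by log2 difference between the library with and the library without RU486 (horizontal axis), for MEF2 RNAi (red) and w1118 (grey), as deposited on the left and with each library set to its median on the right. Dashed lines mark fold changes of 1.5 and 0.65. As deposited, the medians lay at -0.38 in MEF2 RNAi and 0.36 in w1118 thoraces.

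Mef2, the gene targeted by the RNAi, had deposited values of -0.38 with RU486 and 0.25 without it in MEF2 RNAi thoraces, and of 0.22 and -0.10 in w1118 thoraces with and without it. The induced MEF2 RNAi library was the lowest of the 4. The relative difference was -0.26 in MEF2 RNAi thoraces and -0.03 in w1118 thoraces, and a relative fold of 0.833 did not pass the threshold for lower genes. As deposited the difference was -0.63, just past it.

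A gene was called higher at a fold change of at least 1.5 and lower at 0.65 or less, which are 0.58 and -0.62 on the log2 scale. On the relative scale 278 genes were higher in MEF2 RNAi thoraces with RU486 (2.14% of all genes) and 57 were lower (0.438%). As deposited, 105 genes were higher (0.807%) and 910 were lower (6.99%). In the w1118 pair 162 genes were higher (1.25%) and 25 were lower (0.192%) on the relative scale. All 105 genes that were higher as deposited were among the 278, and all 57 lower genes were also among the 910. This had to be so, because the relative scale adds the same amount to every difference. The interquartile range of the relative differences was -0.13 to 0.26, and the extremes were -1.59 and 2.74.

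The higher and lower genes differed in what the w1118 pair did. The 278 higher genes had a median relative difference of 0.86 in MEF2 RNAi thoraces and -0.03 in w1118 thoraces, where 150 of them lay below 0. Among them, 65 were also higher in w1118 thoraces, which is 23.4% of the 278 and 40.1% of the 162. The 57 lower genes had medians of -0.75 and -0.47, and 55 of them lay below 0 in w1118 thoraces too. There, 18 passed the lower threshold, which is 31.6% of the 57 and 72.0% of the 25. All these values are on the relative scale, and the counts below 0 depend on it. In the w1118 pair 93.1% of all genes lay above 0 as deposited and 51.4% on the relative scale. The difference between the genotypes was not tested, as there is 1 library for each condition.

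**Figure D2:**
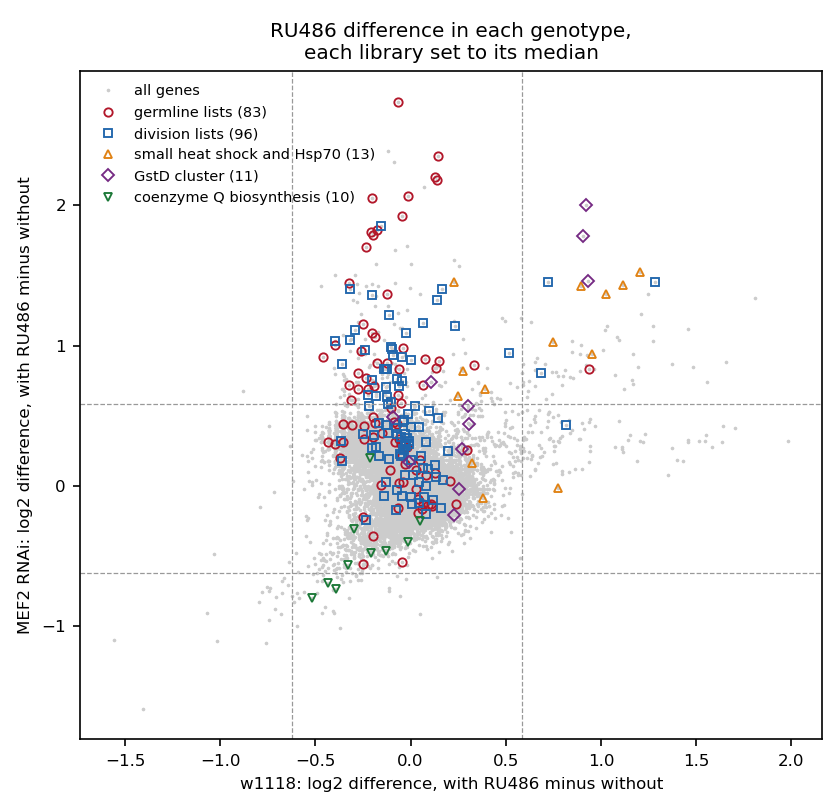
Relative log2 difference with RU486 in MEF2 RNAi thoraces (vertical axis) against that in w1118 thoraces (horizontal axis) for all genes (grey dots), with members of 5 sets of lists as open symbols and the thresholds as dashed lines. Germline and division genes form a column near 0 in w1118, while GstD and heat shock genes spread to the upper right, high in both genotypes.

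The genes with the largest rises were mainly genes of the ovary. Among the 15 highest, 10 belonged to the germline lists, all 15 had their highest value in the induced MEF2 RNAi library on both scales, and GstD5 alone was also past the threshold in w1118 thoraces. Over all genes, 516 had their highest value in this library on both scales (3.97%). The 15 were picked for their rise in this library, so the 2 shares are not a fair comparison. deadhead (dhd), a germline thioredoxin needed at the start of embryogenesis, lies on chromosome X at 5312171 to 5313125 in the Ensembl annotation of BDGP6. The build the authors used is not given in the sources used here. dhd had values of 1.70 with RU486 and -0.68 without it in MEF2 RNAi thoraces, against -0.37 and -0.65 in w1118 thoraces with and without it. The induced MEF2 RNAi library stood alone, with the other 3 between -0.68 and -0.37, and the relative difference was 2.74 in MEF2 RNAi and -0.07 in w1118 thoraces.

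oskar (osk), whose RNA and protein assemble the germ plasm, lies on chromosome 3R at 8935126 to 8938395 in the same annotation. Its values were 1.38 and -0.61 in MEF2 RNAi thoraces with and without RU486, and -0.14 and -0.63 in w1118 thoraces with and without it, a relative difference of 2.35 and 0.14. An antisense transcript annotated over osk, CR44020, also rose, with relative differences of 0.91 and -0.27. It was named after its values were seen, and whether reads were counted by strand is not stated. yolkless (yl), the oocyte's receptor for yolk proteins, had 1.27 and -0.57 in MEF2 RNAi thoraces and -0.11 and -0.59 in w1118 thoraces. wispy (wisp), the poly(A) polymerase that lengthens the tails of maternal RNAs, had 1.23 and -0.58, against -0.08 and -0.57 in w1118 thoraces. In dhd, osk, yl and wisp the induced MEF2 RNAi library was the highest of the 4 on both scales.

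Pxt, a peroxidase that acts like a cyclooxygenase in ovarian follicles, had values of 1.41 and -0.54 in MEF2 RNAi thoraces with and without RU486, and -0.31 and -0.57 in w1118 thoraces. CG17018, named Marf1 in the current annotation and known from oocyte maturation, had 1.49 and -0.53, against -0.37 and -0.60. The relative differences of Pxt were 2.31 and -0.09, and those of CG17018 were 2.39 and -0.12. Neither gene was in a list, so the rise was not limited to the listed germline genes. Of the 278 higher genes 100 were in a list and of the 57 lower genes 4 were, out of 1329 listed genes.

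**Figure D3:**
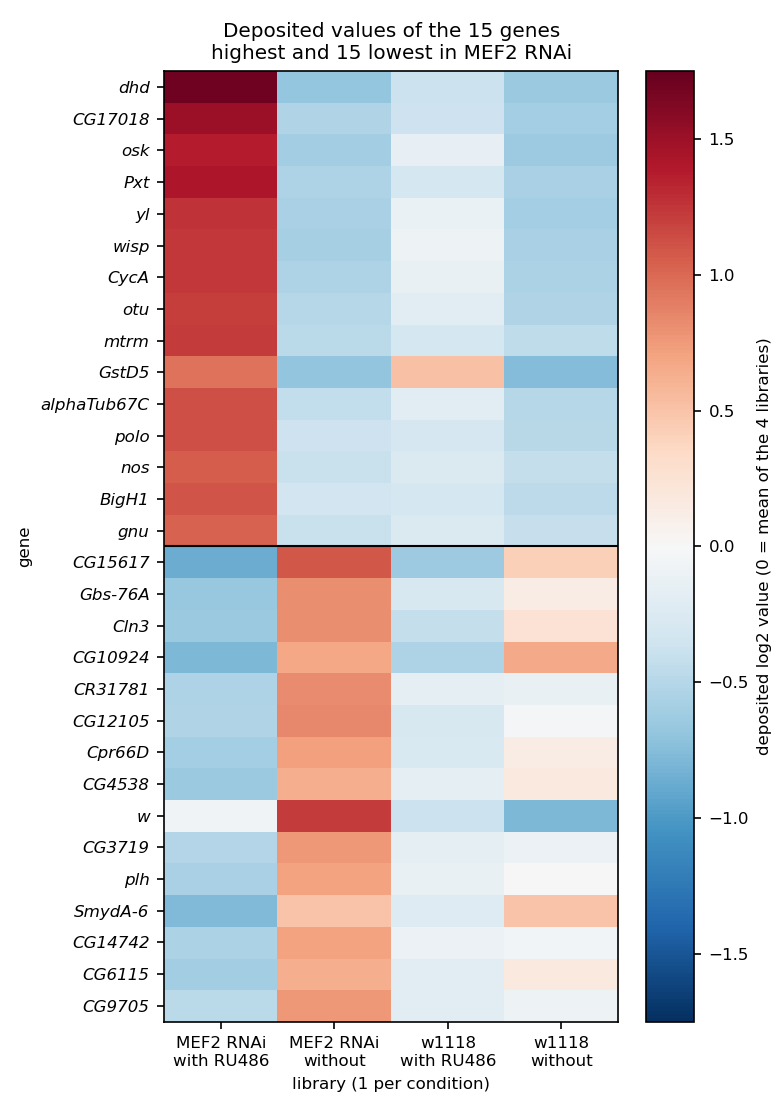
Deposited log2 values (colour, 0 being the mean of the 4 libraries) of the 15 genes with the highest and the 15 with the lowest relative difference in MEF2 RNAi thoraces (rows), in the 4 libraries (columns). In the upper block the first column is red and the rest mostly blue, with GstD5 also positive in w1118 with RU486 (0.51). In the lower block the second column is red, up to 1.22 for w.

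Of the germline lists, egg activation and maternal proteins had the highest median. Of its 13 genes 9 were higher and none lower, with a median relative difference of 0.92, against -0.20 in w1118 thoraces and -0.01 over all genes in MEF2 RNAi thoraces. The list had a median of 0.46 in the induced and -0.25 in the uninduced MEF2 RNAi library, and of -0.08 and -0.26 in the w1118 libraries with drug and vehicle. Besides dhd and wisp, the largest differences were those of alphaTub67C, the maternal alpha tubulin (1.92), and BigH1, the linker histone of the early embryo (1.81). All 3 genes of the PAN GU kinase complex, which starts the translation of maternal RNAs, were higher on the relative scale. gnu had 1.04 and -0.38 in MEF2 RNAi thoraces with and without RU486, against -0.25 and -0.40 in w1118 thoraces. png had 0.28 and -0.25, against 0.24 and -0.26 as deposited, and relative differences of 0.89 in MEF2 RNAi and 0.15 in w1118 thoraces. plu had 0.23 and -0.10, against -0.03 and -0.10. Of these 3 genes only gnu was past the threshold as deposited. fs(1)Ya, a nuclear envelope protein of the egg, had a relative difference of 1.70 and Cks30A, a partner of Cdk1, one of 0.92. The lowest 4 members did not pass either threshold on the relative scale, and they were sra (-0.36), mamo (-0.22), Hira (0.16) and yem (0.19). As deposited, 6 of the 13 genes were higher and 1, sra (-0.72), was lower.

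Of the oocyte patterning genes, 26 of 28 were in the table, and 11 were higher and none lower (median 0.31, and -0.02 in w1118 thoraces). The members spread widely. Besides osk and yl, the highest were otu, which germ cells need to differentiate (2.07), and nos, the translational repressor of the posterior pole (1.82). bicoid (bcd), the anterior determinant, had 0.47 and -0.17 in MEF2 RNAi thoraces with and without RU486, against -0.18 and -0.13 in w1118 thoraces. swa, which localises bicoid RNA, had 0.87 and -0.21, against -0.32 and -0.34. vas, the germ cell helicase, had 0.55 and -0.05, against -0.20 and -0.29. For these 3 genes the induced MEF2 RNAi library was again above all others. At the other end were grk (-0.55), bru1 (-0.54), tud (-0.19) and stau (-0.16), none past the threshold on the relative scale. As deposited, 8 of the 26 genes were higher and 2 were lower, grk (-0.92) and bru1. The deposited median was -0.06, and 0.33 in w1118 thoraces. On both scales 12 genes had their highest and 7 their lowest value in the induced MEF2 RNAi library. bru1 encodes a splicing factor that is also used in flight muscle, and both grk and bru1 overlap other annotated genes. How reads on overlapping genes were assigned is not stated.

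Of the piRNA pathway genes, which silence transposons in the gonads, 24 of 25 were in the table, and 12 were higher and none lower. The median relative difference was 0.58 in MEF2 RNAi and -0.11 in w1118 thoraces, and 15 of the 24 had their highest value in the induced MEF2 RNAi library on both scales. The 3 germline Argonaute proteins were all higher on the relative scale. AGO3 had 0.68 and -0.32 in MEF2 RNAi thoraces with and without RU486, against -0.06 and -0.29 in w1118 thoraces. piwi had 0.47 and -0.23, against -0.04 and -0.20. aub had 0.17 and -0.06, against 0.09 and -0.21, and at a relative difference of 0.59 it lay just past the threshold. As deposited, aub had a difference of 0.23 in MEF2 RNAi thoraces, short of the threshold, and a larger one of 0.30 in w1118 thoraces. The Tudor protein gene krimp had a relative difference of 1.16 and the helicase gene spn-E 0.88. As deposited, only 3 of the 24 were past the threshold, and the median was 0.21 in MEF2 RNAi and 0.24 in w1118 thoraces. The lowest members were Gasz (-0.16), tapas (-0.14), papi (-0.13) and Panx (0.12).

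Of the meiosis genes 20 of 24 were in the table, 6 were higher and none lower (median 0.39, and -0.20 in w1118 thoraces), and 6 were flat. As deposited, 2 were higher, and the median was 0.03 in MEF2 RNAi and 0.15 in w1118 thoraces. The highest was matrimony (mtrm), which holds Polo kinase in check in the oocyte, with 1.22 and -0.47 in MEF2 RNAi thoraces with and without RU486, and -0.30 and -0.45 in w1118 thoraces. Next came the meiotic kinesin gene sub (1.09), the Cdc25 phosphatase gene twe (0.91) and mei-38 (0.87). bgcn passed the threshold in both genotypes, with relative differences of 0.83 and 0.94. The lowest were rec (0.03), c(3)G (0.08), mei-9 (0.10) and mei-W68 (0.20), all of them recombination or synapsis genes. Over the 83 genes of the 4 germline lists, 38 were higher and 44 had their highest value in the induced MEF2 RNAi library on both scales. Their median was 0.45 on the relative and 0.08 on the deposited scale, and -0.08 in w1118 thoraces on the relative scale. Only bgcn was also higher in w1118 thoraces.

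Products of the follicle cells and of yolk synthesis did not pass the thresholds. None of the 20 eggshell genes was called in either direction, 7 of them were flat, and their median relative difference of 0.36 was close to that of flat genes. Their deposited median was 0.00. The extremes were psd (0.55), Cp16 (0.52), Vm26Aa (0.49) and Vm32E (0.49) against Cp18 (0.10), yellow-g (0.21), yellow-g2 (0.22) and Fcp3C (0.30). The yolk protein genes Yp1, Yp2 and Yp3, made in fat body and follicle cells, had -0.25 with RU486 in all 3 cases and 0.32, 0.37 and 0.35 without it in MEF2 RNAi thoraces. In w1118 thoraces Yp1 had 0.25 and -0.32 with and without RU486. Their relative differences lay between -0.25 and -0.20 in MEF2 RNAi thoraces and between 0.21 and 0.25 in w1118 thoraces. In RNA of whole thoraces, more cells of a type and more RNA per cell cannot be told apart. The ovary is not among the thorax tissues named above, and the tissue from which the germline RNA came was not tested. The table holds no level, so the share of germline RNA in each library could not be computed.

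Further germline genes outside the lists are given as examples, picked after their values were seen. The gap junction gene zero population growth (zpg), which joins germ cells to their somatic neighbours, had 0.80 and -0.28 in MEF2 RNAi thoraces with and without RU486, and -0.23 and -0.29 in w1118 thoraces. caudal (cad), a maternal posterior factor that is also used in the gut, had 0.47 and -0.34, against 0.22 and -0.36. Otefin (Ote), a nuclear lamina protein of germline stem cells, had 0.55 and -0.24, against -0.02 and -0.29. Each was picked for a high value in the induced MEF2 RNAi library.

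**Figure D4:**
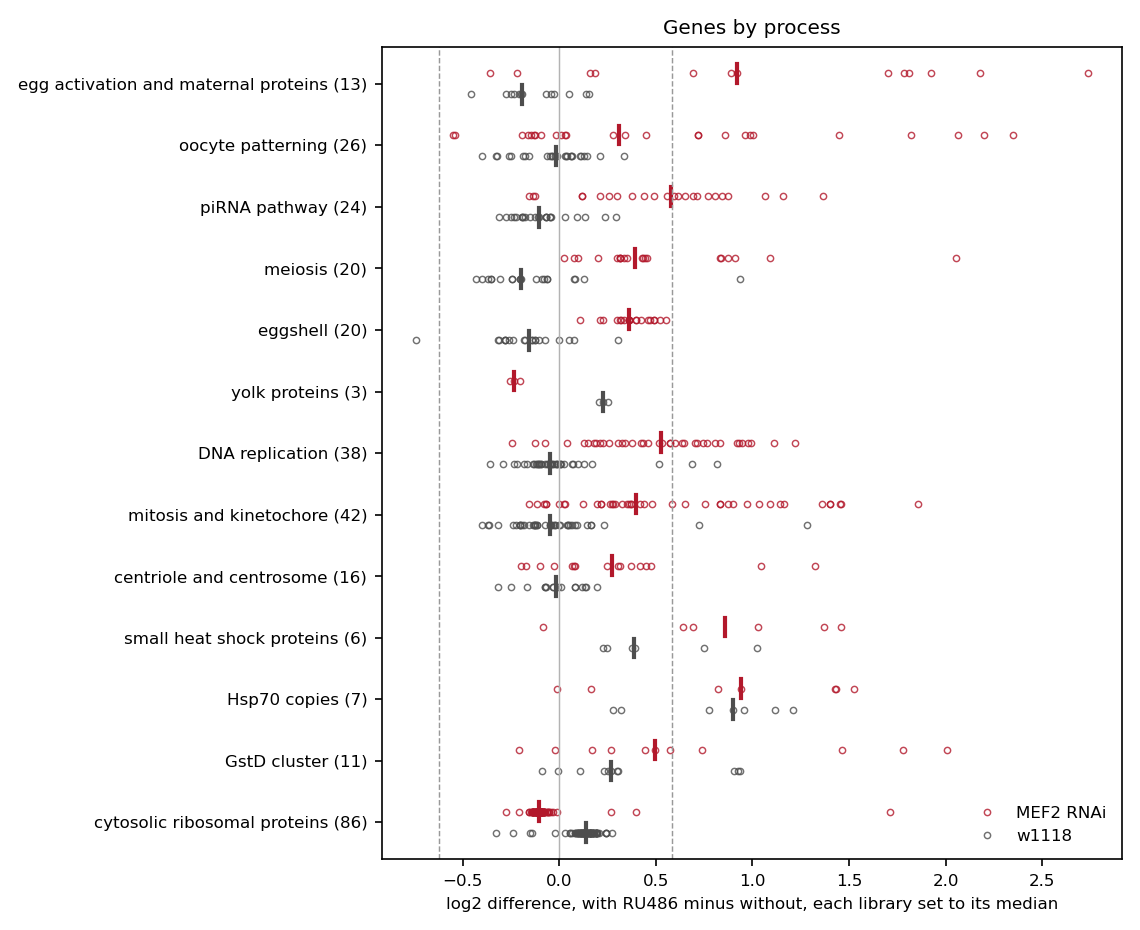
Relative log2 difference with RU486 (horizontal axis) of each member (open circles) of 13 gene lists, with the number in the table in brackets, in MEF2 RNAi (red) and w1118 thoraces (grey). Thick bars are medians and dashed lines the thresholds. The egg activation list reached 2.74 and its median was 0.92, while 81 of the 86 cytosolic ribosomal protein genes lay within 0.1 of their median of -0.10.

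Genes of cell division, which shared no member with the germline lists, were the other large group of higher genes. Over the 96 genes for DNA replication, mitosis and centrosomes, 35 were higher and none lower on the relative scale. On both scales 45 had their highest value in the induced MEF2 RNAi library. The median relative difference was 0.42, against -0.05 in w1118 thoraces, but as deposited the median of each of these lists was larger in w1118 thoraces. Of 38 replication genes 16 were higher (median 0.52). PCNA, the sliding clamp of DNA polymerases, had 0.76 and -0.09 in MEF2 RNAi thoraces with and without RU486, against -0.22 and -0.45 in w1118 thoraces. Orc2, of the origin recognition complex, had 0.58 and -0.17, against -0.18 and -0.23. Mcm5, of the replicative helicase, had 0.56 and -0.07, against -0.12 and -0.37. RnrS, the small subunit of ribonucleotide reductase, had a relative difference of 0.98 in MEF2 RNAi and -0.10 in w1118 thoraces. Its partner RnrL had 0.81 and 0.69, and was thus past the threshold in both. The lowest were Gnf1 (-0.24), Psf3 (-0.12), RpA-70 (-0.07) and Psf2 (0.04). As deposited, 4 replication genes were past the threshold, and the list median was 0.16 in MEF2 RNAi and 0.30 in w1118 thoraces.

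Of 42 mitosis and kinetochore genes 17 were higher (median 0.40, and -0.05 in w1118 thoraces), and 11 as deposited. The deposited median was 0.03 in MEF2 RNAi and 0.30 in w1118 thoraces. polo, the mitotic kinase, had 1.13 and -0.36 in MEF2 RNAi thoraces with and without RU486, and -0.29 and -0.48 in w1118 thoraces. The chromosomal passenger genes Incenp, borr and aurB, whose products guide the separation of chromosomes, had relative differences of 1.45, 1.40 and 0.65. The centralspindlin genes tum and pav, for cytokinesis, had 1.40 and 0.83. aurA, the centrosomal kinase, differed from these. It had 0.51 and -0.59 in MEF2 RNAi thoraces and 0.85 and -0.78 in w1118 thoraces, and its relative differences of 1.46 and 1.28 were past the threshold in both. aurA lies beside Hsp70 copies on chromosome 3R, in a run of higher genes described with the heat shock genes. The lowest were Cdc27 (-0.16), vtd (-0.12), SMC1 (-0.08) and Mis12 (-0.07), 2 of which are subunits of cohesin.

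Centriole and centrosome genes moved less, with a median relative difference of 0.28. As deposited, the median was -0.09 in MEF2 RNAi and 0.33 in w1118 thoraces. On the relative scale 2 of the 16 genes were higher. These were spd-2, with 0.81 and -0.15 in MEF2 RNAi thoraces with and without RU486 and -0.09 and -0.58 in w1118 thoraces, and gammaTub37C, the maternal gamma tubulin. gammaTub37C had a relative difference of 1.04, while gammaTub23C, the gamma tubulin of somatic cells, had -0.17. The next members were Grip71 (0.47) and asl (0.45) at the high end, and cnn (-0.20), Grip163 (-0.10) and Grip84 (-0.03) at the low end. In the tubulin list alphaTub67C (1.92) and gammaTub37C were the 2 of 10 genes called, while alphaTub84B had -0.06 and betaTub56D 0.02.

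Heat shock genes were called in both genotypes, in differing numbers. Of 6 small heat shock protein genes, whose products hold unfolded proteins in solution, 5 were higher in MEF2 RNAi thoraces, with a median of 0.86, and 2 in w1118 thoraces, with a median of 0.39. Hsp27 had 0.79 and -0.30 in MEF2 RNAi thoraces with and without RU486, and 0.04 and -0.53 in w1118 thoraces, and it was highest in the induced MEF2 RNAi library. Hsp26 had 0.59 and -0.41, against 0.60 and -0.78. Hsp23 had 0.30 and -0.36, against 0.58 and -0.52. As deposited, Hsp26 and Hsp23 were highest in w1118 with RU486. Their relative differences were 1.37 and 1.03 in MEF2 RNAi thoraces and 1.02 and 0.75 in w1118 thoraces, past the threshold in both. Hsp67Ba (0.69) and Hsp67Bc (0.64) were also past the threshold, and l(2)efl, a small heat shock protein outside the cluster, had -0.08. The run Hsp26, Hsp67Ba, CR43481, Hsp23 and Hsp27, at 9376418 to 9385694 on chromosome 3L in BDGP6, was the longest run of neighbouring higher genes.

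Of 7 genes for Hsp70 copies and Hsp68, 5 were higher in MEF2 RNAi thoraces, with a median of 0.94, and 5 in w1118 thoraces, with a median of 0.90. Hsp70Bc had 0.55 and -0.61 in MEF2 RNAi thoraces with and without RU486, and 0.81 and -0.75 in w1118 thoraces. Hsp70Ab had 0.54 and -0.53, against 0.73 and -0.74, and Hsp70Bbb 0.51 and -0.55, against 0.64 and -0.60. Hsp70Aa had a relative difference of 0.94 and Hsp70Ba one of 0.82. The lowest were Hsp70Bb (-0.01) and Hsp68 (0.16). The copies are nearly identical in sequence, so their separate values are uncertain, and how the authors assigned reads between them is not stated. None of the 12 genes of the unfolded protein response, the 8 chaperonin, 37 proteasome or 16 antioxidant genes passed a threshold on the relative scale, with medians of -0.14, 0.01, -0.05 and -0.13. Of all genes 2.14% were higher and 0.438% lower.

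Among 35 glutathione S-transferase genes, which conjugate foreign and oxidised compounds to glutathione, the 4 that were higher were the neighbours GstD5, GstD6, GstD7 and GstD8, at 12375733 to 12380815 on chromosome 3R in BDGP6. GstD5 had 0.95 and -0.69 in MEF2 RNAi thoraces with and without RU486, and 0.51 and -0.76 in w1118 thoraces. GstD6 had 0.77 and -0.64, against 0.56 and -0.69. GstD7 had 0.55 and -0.55, against 0.65 and -0.64. The first 3 of the run were past the threshold in w1118 thoraces too, with relative differences of 0.92, 0.90 and 0.93, against 2.01, 1.78 and 1.46 in MEF2 RNAi thoraces. GstD8 had 0.74 and 0.11. The list median was -0.01, and the lowest were GstE9 (-0.24), GstS1 (-0.22), GstD1 (-0.21) and GstZ2 (-0.20). The GstD genes are close paralogs, and the assignment of shared reads is not stated.

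Of 86 cytochrome P450 genes, oxidases of hormones and foreign compounds, 2 were higher and none lower (median -0.08). Cyp6a19 had 0.92 and -0.40 in MEF2 RNAi thoraces with and without RU486, and -0.12 and -0.39 in w1118 thoraces, so only the induced MEF2 RNAi library was high. Cyp6a17 had 0.03 and -0.42, against 0.42 and -0.03, and there the w1118 library with RU486 was highest. Next in order were Cyp6a8 (0.51) and Cyp312a1 (0.49), and the lowest were Cyp6a23 (-0.43), Cyp4ae1 (-0.38), Cyp4d14 (-0.38) and Cyp12b2 (-0.36). None of 18 UDP-glycosyltransferase genes was called.

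Higher genes were often neighbours on the chromosome. Of 276 higher genes with a place in the annotation, 70 (25.4%) stood next to another higher gene, against 4.10% of all 12959 placed genes. Of 56 placed lower genes, 2 stood next to another lower gene. Beside the heat shock and GstD runs, Cht12, Cht4 and Cht9, genes for chitinases, which cut the chitin of cuticle and gut lining, formed a run with CR44703, an antisense transcript of Cht9. Cht9 had 0.15 and -0.37 in MEF2 RNAi thoraces with and without RU486, and 0.61 and -0.40 in w1118 thoraces. The uncoupling protein genes Ucp4B (1.11) and Ucp4C (0.63), mitochondrial carriers, formed a run with CG13992 and CR43465, and their w1118 differences were 1.02 and 0.42. In w1118 thoraces Cht9 (0.65) and Ucp4B passed the threshold, while Cht12 (0.17), Cht4 (0.27) and Ucp4C did not. The chitinase and uncoupling protein lists were added after the values were seen. Overlapping and antisense genes stand in several runs, and their reads cannot be told apart where strand was not used. No chromosome arm stood apart, with medians between -0.02 and 0.00 on X, 2L, 2R, 3L and 3R and -0.10 on the fourth.

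Some transcripts of the mitochondrial genome were higher with RU486 in both genotypes. Among 19 mitochondrial tRNA genes 9 were higher in MEF2 RNAi thoraces (median 0.55) and 8 in w1118 thoraces (median 0.40), a list added after the values were seen. The highest were mt:tRNA:Asn-GTT, with relative differences of 1.23 in MEF2 RNAi and 1.21 in w1118 thoraces, and mt:tRNA:Val-TAC, with 1.12 and 1.46. Of the 13 protein-coding genes of that genome, only mt:ND4L was higher (0.86, and 0.92 in w1118 thoraces), and the median was 0.03. Among the small nuclear RNAs snRNA:7SK, which holds the elongation factor P-TEFb inactive, had 0.78 and -0.42 in MEF2 RNAi thoraces with and without RU486, and 0.12 and -0.48 in w1118 thoraces. snRNA:U2:34ABa (0.63) was the other of 15 past the threshold.

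Lower genes were fewer than higher ones. Over all genes, 3628 had their lowest value in the induced library on both scales (27.9%), and 38 of the 57 lower genes did. The 57 were picked for their fall in that library, so their number is partly built in. The lowest gene, CG15617 of unstated function, had -0.87 and 1.09 in MEF2 RNAi thoraces with and without RU486, and -0.64 and 0.42 in w1118 thoraces. Gbs-76A, a subunit that directs protein phosphatase type 1 to glycogen, had -0.67 and 0.82, against -0.28 and 0.13. CG10924, a phosphoenolpyruvate carboxykinase gene of gluconeogenesis, had -0.79 and 0.67, against -0.54 and 0.66. Gbs-76A and CG10924 fell with RU486 in each genotype, with relative differences of -1.12 and -0.76 for Gbs-76A and -1.10 and -1.56 for CG10924. Of the 15 lowest genes 8 were also past the threshold in w1118 thoraces. Cln3, the fly form of a lysosomal protein, had -1.10 and -1.02, the cuticle protein gene Cpr66D -0.95 and -0.75, the mitochondrial chaperone gene CG4538 (ClpX) -0.91 and -0.68, and SmydA-6, of the SET and MYND domain family, -0.90 and -1.07.

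Relative differences in MEF2 RNAi and then w1118 thoraces were as follows for the other lowest genes, of which CG6115 alone was past the threshold in both. CR31781 had -1.01 and -0.37, CG3719 -0.91 and -0.40, plh -0.90 and -0.46, CG14742 -0.89 and -0.41, CG6115 -0.87 and -0.71, and CG9705 -0.86 and -0.45. CG12105 had -0.53 and 0.84 in MEF2 RNAi thoraces with and without RU486, and -0.28 and -0.03 in w1118 thoraces. white (w), the transporter of eye pigment precursors, had another pattern. Its values were -0.06 and 1.22 in MEF2 RNAi thoraces with and without RU486, and -0.38 and -0.78 in w1118 thoraces. Both MEF2 RNAi libraries were thus above both w1118 libraries, and the relative difference was -0.91 in MEF2 RNAi and 0.05 in w1118 thoraces. The w1118 allele is a deletion in w, and shortened copies of w mark many fly transgenes. The part of transgenes in the reads of w was not tested. In a list of 9 eye pigment genes, added after the values were seen, w was the 1 gene called.

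Coenzyme Q biosynthesis genes were mostly lowest in the induced MEF2 RNAi library. The list was added because 3 of its genes were among the lower genes, so its count is no separate support. Of 10 genes 3 were lower, 9 had their lowest value in the induced library on both scales, and the median was -0.47, against -0.25 in w1118 thoraces. CG9249 (Coq3), a methyltransferase of the pathway, had -0.53 and 0.63 in MEF2 RNAi thoraces with and without RU486, and -0.13 and 0.03 in w1118 thoraces. COQ7, its hydroxylase, had -0.54 and 0.56, against -0.03 and 0.01. CG30493 (Coq9), which works with COQ7, had -0.55 and 0.51, against -0.02 and 0.06. As deposited, the w1118 libraries lay between the MEF2 RNAi libraries in each of these 3. The relative differences were -0.80 in MEF2 RNAi and -0.52 in w1118 thoraces for CG9249, -0.73 and -0.39 for COQ7, and -0.69 and -0.43 for CG30493, so all 3 were below 0 in both genotypes, and in w1118 none passed the threshold. The next were CG2453 (-0.56), qless (-0.48) and CG9410 (-0.46). At the high end were CG32174 (0.20), CG32649 (-0.25), Coq2 (-0.30) and CG7277 (-0.40).

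Some iron, copper and storage protein genes were also among the lower genes. Of 8 metallothionein and ferritin genes, a list added after the values were seen, 2 were lower, and the median was 0.09, against -0.19 in w1118 thoraces. MtnA, a copper-binding metallothionein, had -0.34 and 0.81 in MEF2 RNAi thoraces with and without RU486, and -0.09 and -0.38 in w1118 thoraces. Fer1HCH, the heavy chain of secreted ferritin, had -0.44 and 0.59, against -0.03 and -0.12, and its light chain partner Fer2LCH -0.36 and 0.49, against 0.03 and -0.16. The 2 ferritin genes overlap in the annotation, and only Fer1HCH passed the threshold (-0.67, and -0.49 for Fer2LCH). Above 0 were MtnB (0.41), MtnE (0.32), Fer3HCH (0.32) and MtnD (0.19), none past the threshold. Of 16 fat body genes 2 were lower and none higher (median -0.14, and 0.06 in w1118 thoraces). These were the storage protein genes Lsp1beta, with -0.49 and 0.67 in MEF2 RNAi thoraces and -0.08 and -0.10 in w1118 thoraces, and Lsp2, with -0.30 and 0.79, against -0.13 and -0.36. CR11538, annotated antisense to Lsp2, had a relative difference of -0.75 beside -0.73 for Lsp2, and the reads of the pair cannot be told apart if strand was not used. Other fat body genes had -0.31 (Adh) and -0.21 (Mtp) at the low end, and 0.19 (Tsf1), 0.15 (Lsp1gamma), 0.14 (Fbp1) and 0.13 (Gnmt) at the high end.

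**Figure D5:**
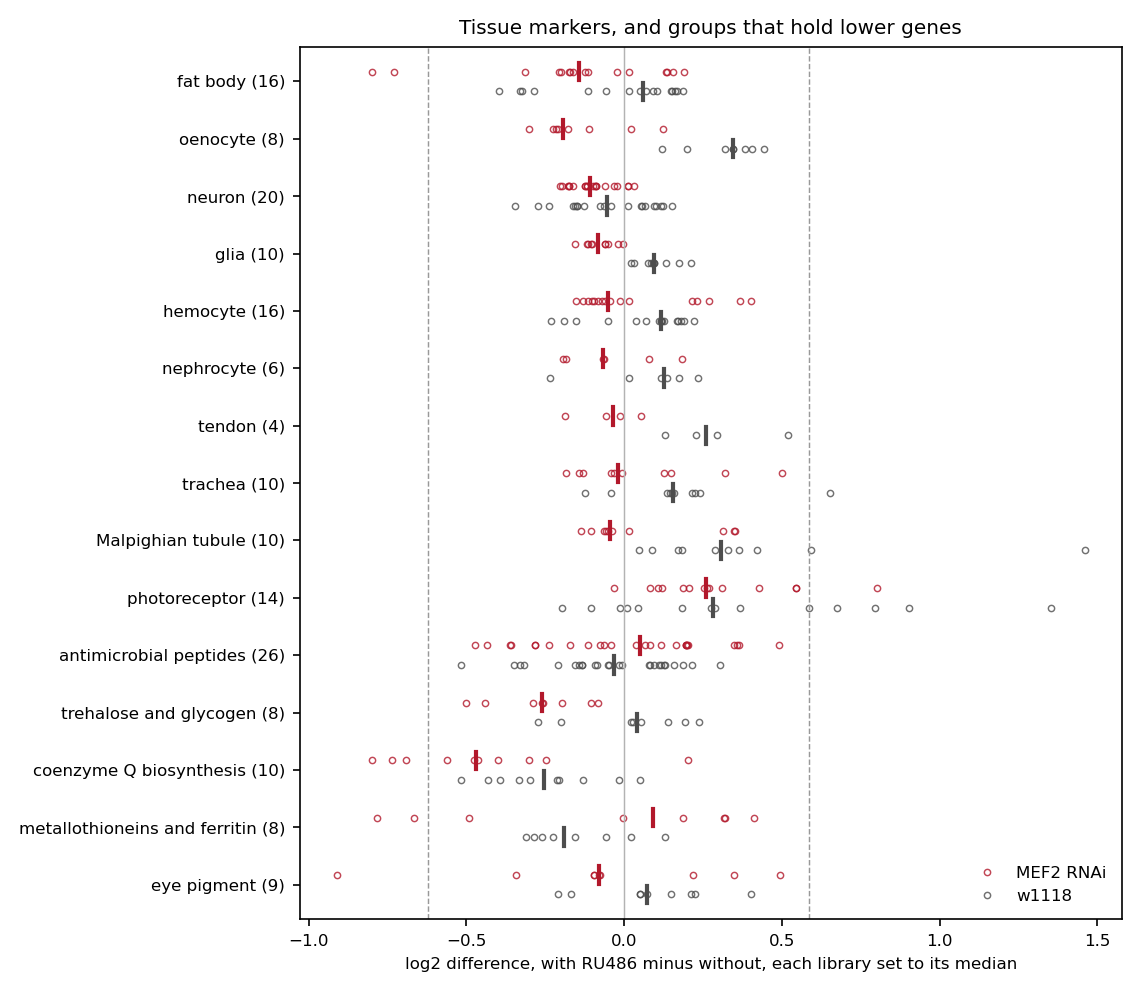
Relative log2 difference with RU486 (horizontal axis) of each member (open circles) of 15 lists of tissue markers and of groups that hold lower genes, in MEF2 RNAi (red) and w1118 thoraces (grey). Thick bars are medians and dashed lines the thresholds. Neuron and glia markers lay between -0.20 and 0.03 in MEF2 RNAi thoraces, and w was the lowest point at -0.91.

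On the relative scale, markers of the other tissues of the thorax differed little between the MEF2 RNAi libraries. None of the 20 neuron, 10 glia, 16 hemocyte, 8 oenocyte, 6 nephrocyte, 10 trachea or 4 tendon genes was called on the relative scale. Of all genes 2.14% were higher and 0.438% lower, so lists this short without a called gene are near that share. The neuron median was -0.11 and its members lay between -0.20 (slo) and 0.03 (onecut), with elav at -0.16. The glia median was -0.08, with repo lowest at -0.16. As deposited, all 20 neuron and all 10 glia genes were below 0, with medians of -0.47 and -0.45. On both scales 16 neuron and 6 glia genes had their lowest value in the induced MEF2 RNAi library, against 27.9% of all genes. In the hemocyte and trachea lists 3 of 16 and 1 of 10 genes did. The hemocyte median was -0.05, and its extremes were ush (-0.15) and NimC4 (0.40). The oenocyte genes, which make cuticular hydrocarbons, had a median of -0.19 in MEF2 RNAi and 0.35 in w1118 thoraces, from FASN3 (-0.30) to kar (0.12). Of 14 photoreceptor genes inaD (0.80) was higher in MEF2 RNAi thoraces, and 5 were higher in w1118 thoraces. The main rhodopsin, ninaE, had a relative difference of 0.08 in MEF2 RNAi and 1.35 in w1118 thoraces. None of the 3 male dosage compensation genes, the 7 testis or the 19 seminal fluid genes was called.

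On the relative scale no member passed a threshold in 44 of 67 lists of named genes. Of all genes 2.14% were higher and 0.438% lower on that scale. As deposited, where 6.99% of all genes were lower, 5 of 8 trehalose and glycogen genes, 3 of 5 Turandot, 6 of 26 antimicrobial peptide and 3 of 15 lipid storage genes were lower. Among the 44 were 26 antimicrobial peptide genes, effectors of immunity, with a median of 0.05, the extremes being Dro (-0.47) and Drsl2 (0.49). The 5 Turandot stress peptide genes lay at -0.43 (TotC), -0.33 (TotX), -0.30 (TotA), 0.04 (TotM) and 0.27 (TotB). The 15 lipid storage genes had a median of -0.15, from Pcyt1 (-0.36) to Seipin (0.04), and the 15 sterol transport genes one of -0.07, from Npc2h (-0.38) to Osbp (0.43). The 8 trehalose and glycogen genes were all below 0, with a median of -0.26, against 0.04 in w1118 thoraces. Glycogen synthase (GlyS) was lowest at -0.50 and UGP followed at -0.44. The 20 insulin and TOR genes and the 8 clock genes had medians of -0.05 and -0.06. Of 72 mitochondrial ribosomal protein genes 1 was lower on the relative scale, mRpS7, at -0.71 in MEF2 RNAi and -0.64 in w1118 thoraces, and 29 as deposited. The list median was -0.22, 69 of the 72 lay below 0, and 39 had their lowest value in the induced MEF2 RNAi library on both scales.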

How the data were processed

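Per the labels, total RNA libraries were made with a stranded TruSeq kit. The 13012 genes have 1 log2 value per library in the table that the authors deposited. Each gene's values sum to 0, to within 7.0e-15. Normalization, genome build, aligner and counter are not given in the sources used here. Read totals are not in the table, so depth is unknown and no interval or floor is given.

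Differences between the RU486 and ethanol libraries were computed as deposited and after subtracting each library's median over all genes. The fold thresholds of 1.5 and 0.65 follow the study's legends. With 1 library per condition no test was run. The comparison and the 73 gene lists were chosen with earlier results of these data known, and 12 lists were added after the values were seen. The genes named are Mef2, the 15 highest and 15 lowest (leaving out flat genes and the 1963 that share all 4 values with another gene), and the 4 highest and lowest members of lists described. Others, and members given in between, were chosen after their values were seen. Of the gene names 12959 (99.6%) matched the Ensembl annotation of BDGP6, 2167 of them by synonym. Other references, thresholds and comparison libraries were tried. Python 3.11.15, numpy 2.4.6, pandas 2.3.3 and matplotlib 3.10.9 were used, and the calculations were tested on simulated data.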

Additional observations from a re-analysis of the deposited data

Results flagged for a closer look

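The median deposited log2 difference of all genes was -0.38 in MEF2 RNAi thoraces and 0.36 in w1118 thoraces, so that the drug and vehicle libraries of the genotypes were shifted in opposite directions. The median relative difference of the egg activation and maternal protein list was 0.92 in MEF2 RNAi thoraces and -0.20 in w1118 thoraces. These lie on opposite sides of 0 on the relative scale only. As deposited, the list medians were 0.55 in MEF2 RNAi and 0.15 in w1118 thoraces, both above 0. With 1 library per condition neither difference between the genotypes was tested, and the part of the library shift in other results was not tested beyond the references given here.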

How the results depend on the processing

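The counts of 278 higher and 57 lower genes depended on the reference, the threshold and the library compared with. They were 105 and 910 as deposited, 437 and 34 relative to the cytosolic ribosomal protein genes, 95 and 5 at folds of 2 and 0.5, and 165 and 7 over the mean of the other 3 libraries. Relative to the mode of the differences, a reference chosen after seeing the data, they were 445 and 32. Over w1118 with RU486 there were 175 higher genes and 55 lower ones. Relative to genes beyond 0.1 of 0 the counts were 319 and 43. They were 278 and 57 without flat genes, none of which can reach a threshold on the relative scale. Without genes sharing all 4 values they were also 278 and 57. As deposited, the number higher was 3 for the piRNA pathway, 2 for meiosis, 4 for DNA replication, 11 for mitosis, 3 for small heat shock proteins and 3 for Hsp70 copies. Small heat shock proteins had 3 over the mean of the other 3 libraries. Over w1118 with RU486 the small heat shock proteins, the Hsp70 copies and the glutathione S-transferases each had 1. The cause of these changes was not tested. Of the 31 genes named by rank or as target none changed direction under 3 references. For the genes named by rank this was fixed in advance, as each reference shifts all genes by less than their differences. Mef2 passed the lower threshold as deposited (-0.63). No paired analysis was possible because there was only 1 library for every condition and nothing was tested. For the same reason no library could be left out. The planned search of promoters for motifs was not run, since no promoter sequences were used here. Depth is unknown, so small values of weakly expressed genes cannot be told from values near 0.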

Other observations

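Some chemosensory receptor genes were called higher. They were 11.1% of the gustatory, 6.90% of the odorant and none of the 35 ionotropic receptor genes, against 2.14% of all genes. Of 27 gustatory receptor genes 3 were higher in MEF2 RNAi thoraces with RU486, led by Gr63a, a subunit of the carbon dioxide receptor, with 0.40 and -0.43 in MEF2 RNAi thoraces with and without the drug, and 0.48 and -0.45 in w1118 thoraces, where its relative difference of 0.58 was just short of the threshold. Gr59e (0.74) and Gr59f (0.65) stand next to each other and to the channel gene ppk3 (0.72). Of 29 odorant receptor genes Or2a (0.81) and Or9a (0.74) were higher, and both were also past the threshold in w1118 thoraces, at 0.76 and 0.59. Of the gustatory and odorant receptor genes 12 and 10 were not flat, and the list medians were 0.31 and 0.35, beside 0.35 for flat genes.

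Outside the lists, rpk, a DEG/ENaC channel gene, had 0.80 and -0.45 in MEF2 RNAi thoraces with and without RU486, and 0.11 and -0.46 in w1118 thoraces. Ilp8, an insulin-like peptide gene, had 0.14 and -0.55, against 0.52 and -0.11, so both libraries of w1118 lay above the uninduced MEF2 RNAi library. Members of the Smyd family stood on both sides. SmydA-1 (0.66) and SmydA-3 (0.71) were higher, SmydA-2 (-0.67) and SmydA-6 (-0.90) were lower, and in w1118 thoraces the 4 had 0.75, 0.65, -0.46 and -1.07. Genes with CG numbers alone made up 68 of the 278 higher and 34 of the 57 lower genes, and 5226 of all 13012 genes. Their share was thus smaller among the higher genes, and larger among the lower genes, than among all genes. These genes were chosen after their values were seen.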
